A study of Mus musculus with 9 samples.

Results

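The comparison of p21 overexpression with an empty vector was made in mouse embryonic fibroblasts, which are primary connective tissue cells cultured from mouse embryos. It rests on 6 of the 9 libraries of the series, taken by their titles: 3 from cells infected with a lentivirus that carries p21 and 3 from cells infected with the control lentivirus. The titles number the libraries of each group 1, 2 and 3, and the libraries were paired by that number. All cells were of the C57BL/6 strain and were collected at day 4. The labels class the cells of every group, the controls included, as non-senescent. The other 3 libraries came from the same kind of cells given p16. They entered the fit, which takes its estimate of the spread from all 9 libraries, and some of their values are set beside those of p21. The labels do not give the promoter that drives the delivered gene, the share of cells infected, the age of the embryos or whether replicates were separate cultures. The p-values may therefore measure only the spread between these samples. All 14 fibroblast marker genes that were listed were expressed, with a summed level of 34158 to 38077 CPM with the empty vector and 36765 to 38606 CPM with p21. In the test described below 6 of them were higher and 6 lower with p21, 1 of the latter by at least 2-fold.

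p21, encoded by Cdkn1a, binds and inhibits complexes of cyclins with cyclin-dependent kinases and also binds PCNA, the sliding clamp of DNA replication. Without that kinase activity the retinoblastoma family stays bound to E2F factors, and the DREAM complex, which holds the RB relatives p107 or p130, represses genes of the cell cycle. DREAM and its MuvB core contact promoters of mitotic genes at a short element named the cell cycle genes homology region (CHR), often next to CCAAT boxes bound by NF-Y. Genes of DNA replication more often carry E2F elements. In fibroblasts p21 is best known as the target of p53 that stops division after DNA damage.

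The promoters of 5 mitotic genes are printed because these genes fell with p21 and carry the CHR close to their start site. Each stretch is the 100 bases before the RefSeq start site of the gene in GRCm38.p6, written in the direction of transcription. Capitals mark TTTGAA (the CHR searched here) and CCAAT on either strand, so that TTCAAA and ATTGG are the same elements read on the other strand.
Cdk1: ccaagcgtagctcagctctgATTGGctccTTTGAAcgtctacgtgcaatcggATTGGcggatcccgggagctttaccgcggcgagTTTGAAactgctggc
Cdc20: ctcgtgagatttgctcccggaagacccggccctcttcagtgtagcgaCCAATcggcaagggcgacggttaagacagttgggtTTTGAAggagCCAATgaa
Kif11: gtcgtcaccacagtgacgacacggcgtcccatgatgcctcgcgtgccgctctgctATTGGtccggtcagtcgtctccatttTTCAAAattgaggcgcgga
Kif15: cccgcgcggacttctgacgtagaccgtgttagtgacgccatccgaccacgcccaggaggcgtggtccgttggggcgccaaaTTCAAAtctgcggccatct
Top2a: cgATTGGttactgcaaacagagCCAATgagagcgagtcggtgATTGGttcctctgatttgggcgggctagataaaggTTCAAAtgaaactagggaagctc
The Cdk1 stretch lies at chr10:69352913-69353012, minus strand, and that of Cdc20 at chr4:118437344-118437443, minus strand. The Kif11 stretch lies at chr19:37376282-37376381, plus strand, that of Kif15 at chr9:122950981-122951080, plus strand and that of Top2a at chr11:99024190-99024289, minus strand. The CHR nearest to the start site begins 15 bases before it in Cdk1, 18 in Cdc20, 19 in Kif11 and Kif15, and 23 in Top2a. Cdk1 holds 2 copies of TTTGAA and 2 CCAAT boxes, Top2a holds 3 CCAAT boxes, and the Kif15 stretch holds none.

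Library totals ran from 44455730 to 63152239 counted reads, and 14223 of the 24062 genes in the table were tested. Levels are in CPM, the standard unit of counts relative to the scaled library total. Fold changes are on the log2 scale as p21 against the empty vector within pairs, each ± its standard error, and p-values come from edgeR's quasi-likelihood test, adjusted for all genes tested by Benjamini-Hochberg. A gene is said to have risen or fallen where its adjusted p was under 0.05. Libraries with the same replicate number deviated together from their group means, clearly so only for replicate 3. The replicate 3 libraries stood apart from the other 2 numbers in every group on the second principal component, which held 18.9% of the variance. Xist, the transcript that silences 1 X chromosome in female cells, was at 0.0902, 0.137 and 251 CPM with the empty vector and 6.96, 0.340 and 193 CPM with p21. Without the replicate 3 pair 6060 genes passed, 2972 higher and 3088 lower with p21. For lists where that count moved most it is given beside the count.

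With p21, 6856 genes (48.2%) passed the test. Of all genes tested 3410 (24.0%) rose and 3446 (24.2%) fell, so these shares are the background for every list below. The changes were mostly small: 1485 of the genes that rose and 1615 of those that fell changed by under 1.2-fold. At least a 2-fold rise was seen in 310 genes and at least a 2-fold fall in 117. With a test against a 1.5-fold change the directions were near even, at 190 higher and 194 lower. The pairs moved together, with the difference of the same sign in 79.0% of genes for pairs 1 and 2, 77.5% for pairs 1 and 3 and 74.9% for pairs 2 and 3. Across genes, which are not independent replicates, the differences of the pairs correlated at r = 0.566, 0.575 and 0.522. In 6985 genes (49.1%) the 3 libraries of 1 group lay wholly above the 3 of the other. Scaling by library totals alone gave 7104 calls, of which 38.6% were rises against 49.7% with the scaling used here, and moved the median of all genes to -0.05. Without the pairing 5681 genes passed. In bulk RNA, fewer cells of a type and less RNA per cell cannot be told apart.

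**Figure D1:**
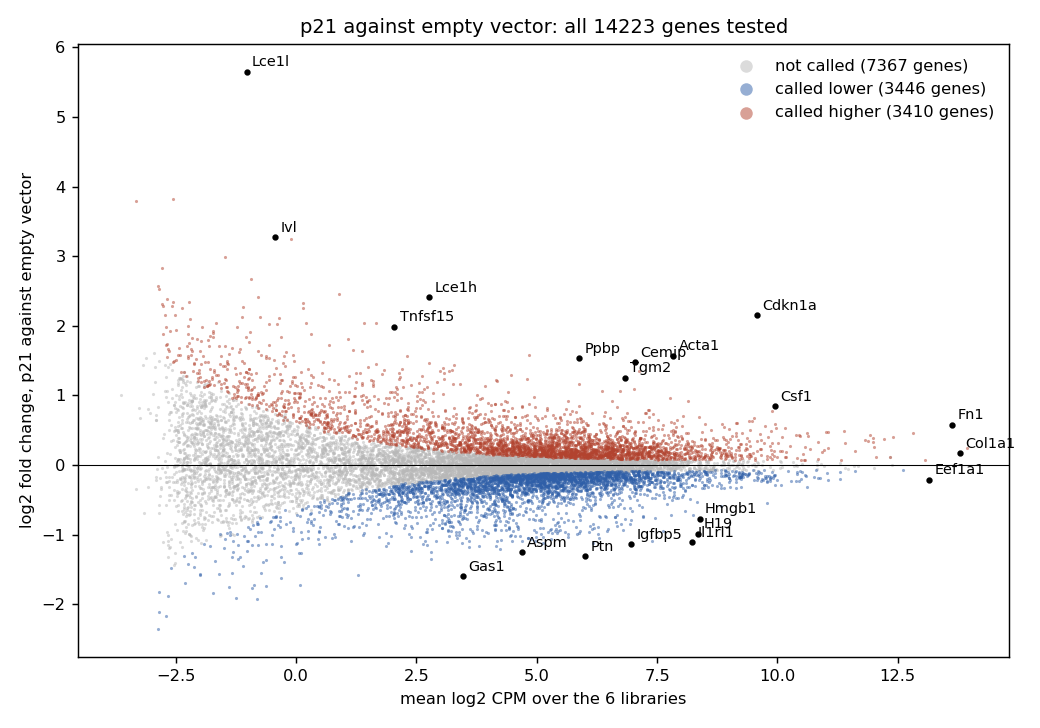
Log2 fold change of p21 against the empty vector (vertical axis) against the mean log2 CPM of the 6 libraries (horizontal axis) for all 14223 genes tested, with genes that rose or fell at an adjusted p under 0.05 in colour. Calls extend to small changes, and 310 genes lie at a 2-fold rise or more against 117 at a 2-fold fall or more. A test against a 1.5-fold change passed 190 genes higher and 194 lower.

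Cdkn1a checks the labels. It lies on chromosome 17 at 29090976 to 29100727 in GRCm38 and was at 349.8, 375 and 356 CPM with the empty vector and 1773, 1429 and 1612 CPM with p21. The p21 libraries lay far above the controls, with a log2 fold change of 2.15 ± 0.048 (adjusted p = 1.23e-19). The row cannot tell delivered from endogenous reads. Cdkn2a, the locus of p16 and Arf, was at 36.9, 42.2 and 34.7 CPM with the empty vector and 48.1, 47.4 and 43.98 CPM with p21, without overlap between the groups. It rose with p21 by 0.29 ± 0.058 on the log2 scale, and stood at 1731 CPM on average in the p16 libraries.

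The kinases' own partners moved both ways. Of 32 cyclins D and E, kinase inhibitors, E2F and RB family genes, 7 rose and 15 fell. Ccnd2, which encodes cyclin D2, an activator of the kinases CDK4 and CDK6, was at 746, 749 and 687 CPM with the empty vector and 1248, 1213 and 1262 CPM with p21. All 3 p21 libraries lay above all 3 controls, and the log2 fold change was 0.77 ± 0.031 (adjusted p = 3.85e-15). Cyclin D1 (Ccnd1) rose from 352 to 461 CPM, cyclin E1 (Ccne1) from 59.2 to 80.6 CPM and the inhibitor p15 (Cdkn2b) from 41.3 to 57.3 CPM. The genes that fell include the activators of later phases. Foxm1, a transcription factor of mitotic genes, fell from 106 to 57.2 CPM, Mybl2, the B-Myb partner of MuvB, from 47.6 to 25.4 CPM, and Cdk2 from 42.2 to 30.5 CPM. The repressive family members E2f7 and E2f8 fell as well (-0.67 and -0.92 on the log2 scale), and so did the inhibitor p27 (Cdkn1b, -0.53).

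Other genes of the p53 pathway moved by little beside Cdkn1a. Of 33 tested 15 rose and 5 fell, or 12 and 9 with library totals and 12 and 3 in replicates 1 and 2 alone, and none changed by 2-fold (median 0.12 on the log2 scale). The p53 gene itself (Trp53) was at 146, 149 and 150.1 CPM with the empty vector and 129, 134 and 129.7 CPM with p21, below all controls in all p21 libraries (-0.18 ± 0.034). Mdm2, the ubiquitin ligase that p53 induces and that degrades it, rose from 162 to 193 CPM, cyclin G1 (Ccng1) from 598 to 710.4 CPM and the stress cytokine Gdf15 from 5.96 to 9.14 CPM. Among targets that promote cell death, Pmaip1 (Noxa) and the death receptor Tnfrsf10b rose by 0.29 and 0.24.

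Genes of mitosis fell throughout. All 34 tested genes of the mitotic kinase, cyclin and spindle list fell (median -0.95 on the log2 scale), and so did all 19 centromere proteins (median -0.77). Cdk1, the kinase that starts mitosis, was at 136, 133 and 123 CPM with the empty vector and 77.5, 79.1 and 81.7 CPM with p21. Top2a, the topoisomerase that untangles sister chromatids, was at 287, 268 and 274 CPM with the empty vector and 131, 142 and 155 CPM with p21. In both genes the groups did not overlap, and the log2 fold changes were -0.72 ± 0.041 and -0.95 ± 0.043. Aspm, a spindle pole protein, fell by 1.25, Cenpf fell by 1.12 and cyclin A2 (Ccna2) fell by 1.12. Among the largest falls of all genes were also less studied division genes: Sapcd2, at 4.46, 3.46 and 4.59 CPM with the empty vector and 1.36, 1.70 and 1.16 CPM with p21, Ska1, a subunit of a kinetochore complex (-1.24 on the log2 scale), and Troap, a spindle protein (-1.12). The helicase Pif1 (-1.18), the cohesin acetyltransferase Esco2 (-1.10) and the MAX partner Mxd3 (-1.10) were also among the 30 largest falls.

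Replication and repair genes fell by less. Of 39 replication fork genes 36 fell and none rose, with a median of -0.41. Of 40 repair genes 28 fell and 1 rose (median -0.36), and of 27 nucleotide synthesis genes 23 fell (median -0.30). Clspn, the checkpoint adaptor claspin, was at 40.7, 40.5 and 39.8 CPM with the empty vector and 24.1, 25.1 and 24.6 CPM with p21, with every p21 library below every control. Among repair genes the helicase Blm fell from 21.6 to 11.1 CPM, Fancd2 of the Fanconi pathway from 13.9 to 7.11 CPM and Brca1 from 23.6 to 14.01 CPM. The exception was Xpc, which recognises damage in nucleotide excision repair and is known as a p53 target. It rose from 9.70 to 11.4 CPM, but missed the threshold in replicates 1 and 2 alone (adjusted p = 0.078) and with library totals (adjusted p = 0.059). It also missed it without replicate 2 of the empty vector (0.106) and without replicate 2 or 3 of p21 (0.099 and 0.066). Thymidine kinase (Tk1) fell from 71.7 to 41.1 CPM and the large subunit of ribonucleotide reductase (Rrm1) from 252 to 184 CPM.

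Promoter letters were counted in the RefSeq window from 250 bases before to 50 bases after the start site, which 10507 tested genes had. TTTGAA, on either strand, occurred in 11.4% of all these windows. It occurred in 14.6% of windows of genes that fell, in 9.17% of those that rose and in 23 of 79 (29.1%) of those that fell by at least 2-fold. In the mitotic list 23 of 29 windows (79.3%) held it, and 20 of 29 (69.0%) held it together with a CCAAT box, against 4.78% of all windows. The E2F core searched, GCGGGAA or GCGCGAA on either strand, was in 16 of 31 windows (51.6%) of the replication fork list and in 11.1% of all. The motifs can overlap in a window, and a match is a description of letters only.

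**Figure D2:**
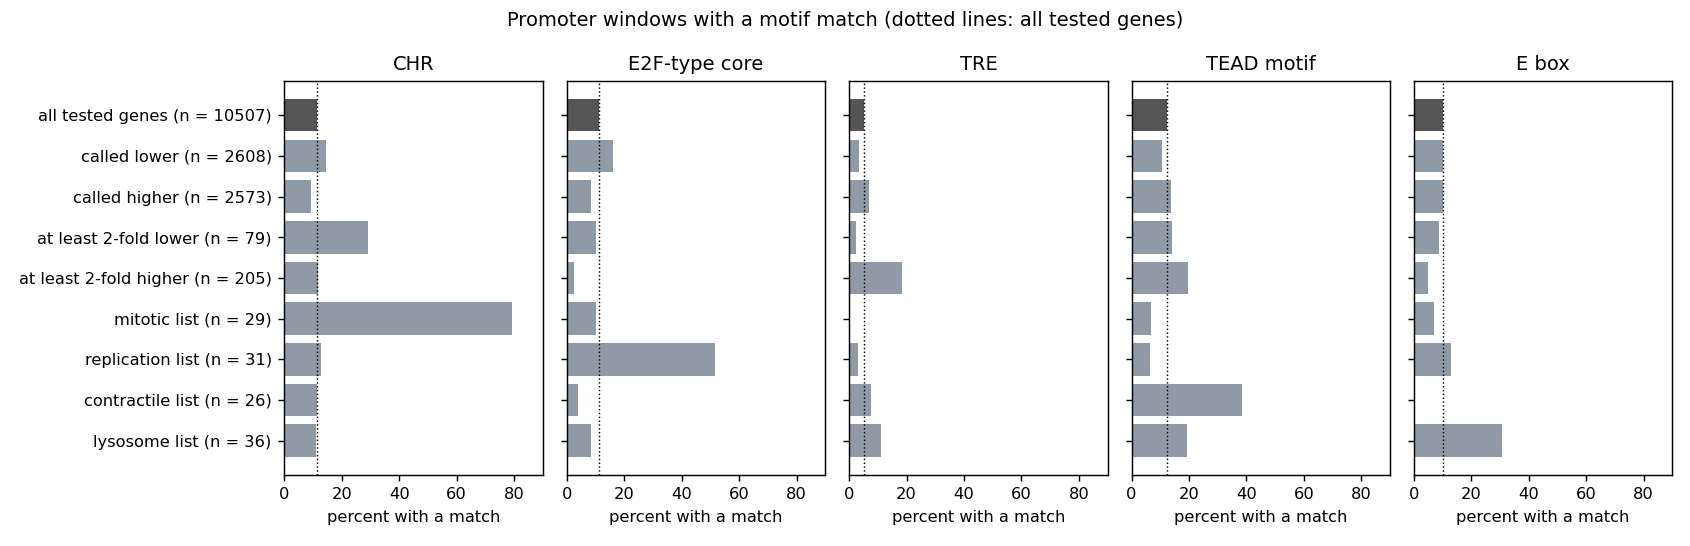
Percent of promoter windows of 300 bases that hold each motif (horizontal axis) for all tested genes and for the sets named on the vertical axis, with dotted lines at the share of all windows. TRE is the AP-1 element described further on. The mitotic list stands out for the CHR at 79.3% against 11.4% of all windows, and the replication fork list for the E2F core at 51.6% against 11.1%.

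Proteins that package the nucleus fell along with division genes. Of 20 nuclear lamina and high mobility group genes 18 fell and none rose (median -0.43), and of 20 histone variants and histone chaperones 19 fell (median -0.41). Hmgb1, a chromatin protein that also acts as an alarm signal outside cells, was at 449, 429 and 432 CPM with the empty vector and 247, 247 and 274 CPM with p21. Lmnb1, lamin B1 of the inner nuclear membrane, was at 101, 100.5 and 101 CPM with the empty vector and 55.2, 61.7 and 65.3 CPM with p21. The p21 libraries lay below the controls in both (-0.77 ± 0.037 and -0.74 ± 0.045 on the log2 scale). Hmgb2 fell from 108 to 54.5 CPM, the lamina partner Tmpo from 132 to 75.0 CPM and the lamin B receptor Lbr from 62.2 to 38.5 CPM. Among histone variants the linker histone H1f0 fell from 94.0 to 51.2 CPM, H2afz (H2A.Z) from 282 to 172 CPM and H3f3b (H3.3) from 346 to 245 CPM. The smallest of the falls named here was Lmna, which encodes lamins A and C, from 928 to 818 CPM.

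Chromatin enzymes split. Of 54 tested, 24 fell and 11 rose, or 4 with library totals. The maintenance methylation pair Uhrf1 and Dnmt1 fell from 128 to 76.2 CPM and from 162 to 114 CPM, and the H3K9 methyltransferase Suv39h1 and the Polycomb enzyme Ezh2 fell (-0.47 and -0.45 on the log2 scale). The demethylase Kdm5b rose from 85.3 to 106 CPM and the deacetylase Sirt2 from 36.6 to 43.1 CPM.

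Replication-dependent histone genes went the other way in this table. Of 34 tested, 16 rose and 1 fell, with a median of 0.46. Hist1h2ab was at 1.28, 1.68 and 1.64 CPM with the empty vector and 6.15, 6.83 and 5.94 CPM with p21 and Hist1h3b at 1.30, 1.18 and 1.39 CPM with the empty vector and 5.84, 4.65 and 5.39 CPM with p21. In both genes all p21 libraries lay above all controls, by 2.04 ± 0.13 and 2.04 ± 0.14 on the log2 scale. These messages normally end in a stem loop without a poly(A) tail, the library kit selects poly(A) RNA, and the copies are near-identical, so the levels count only the part of these messages the library held and the split among copies is uncertain. The only gene that fell, Hist2h2bb, was at 0.397, 0.172 and 0.235 CPM with the empty vector and 0.168, 0.0454 and 0.00 CPM with p21. Its adjusted p was 0.0151, against 0.061 without the pairing and 0.095 in replicates 1 and 2 alone. It was 0.060 and 0.052 without replicate 1 or 3 of the empty vector and 0.093 without replicate 3 of p21.

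The machinery of RNA and ribosome production fell broadly and by small amounts. Of 57 splicing factors 45 fell and 2 rose (median -0.24), and of 39 nuclear pore and transport genes 27 fell and none rose (median -0.24). In the nucleolar list 37 of 46 fell (median -0.24), and 22 of 52 translation factors and tRNA synthetases did. Srsf1, a splicing regulator, was at 274, 259 and 264 CPM with the empty vector and 185, 179 and 200.3 CPM with p21, with no overlap between groups. Hnrnpd, an RNA-binding protein of unstable messages, fell from 138 to 90.5 CPM, and Esrp2, a splicing factor typical of epithelium, rose from 3.65 to 6.80 CPM. Of the nucleolus, the pseudouridine synthase Dkc1 fell from 79.9 to 54.3 CPM and Ubtf, a factor of ribosomal DNA transcription, from 141 to 104 CPM. Exportin Cse1l fell by 0.36 and importin Kpna2 fell by 0.46 on the log2 scale. The elongation factor Eef1a1 had the largest loss in CPM of all genes, from 9789 to 8457 CPM, at a log2 fold change of -0.21. Of 63 cytosolic ribosomal proteins 51 fell and none rose, by small amounts (median -0.13). The KRAB and other zinc finger genes, a large set drawn by symbol, showed 96 falls and 19 rises among 334 (median -0.11). The share of falls was close to the background, and that of rises was far below it. DEAD and DEAH box helicases fell in 29 of 53 and rose in 5, and mitochondrial ribosomal proteins fell in 28 of 77 and rose in 5.

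**Figure D3:**
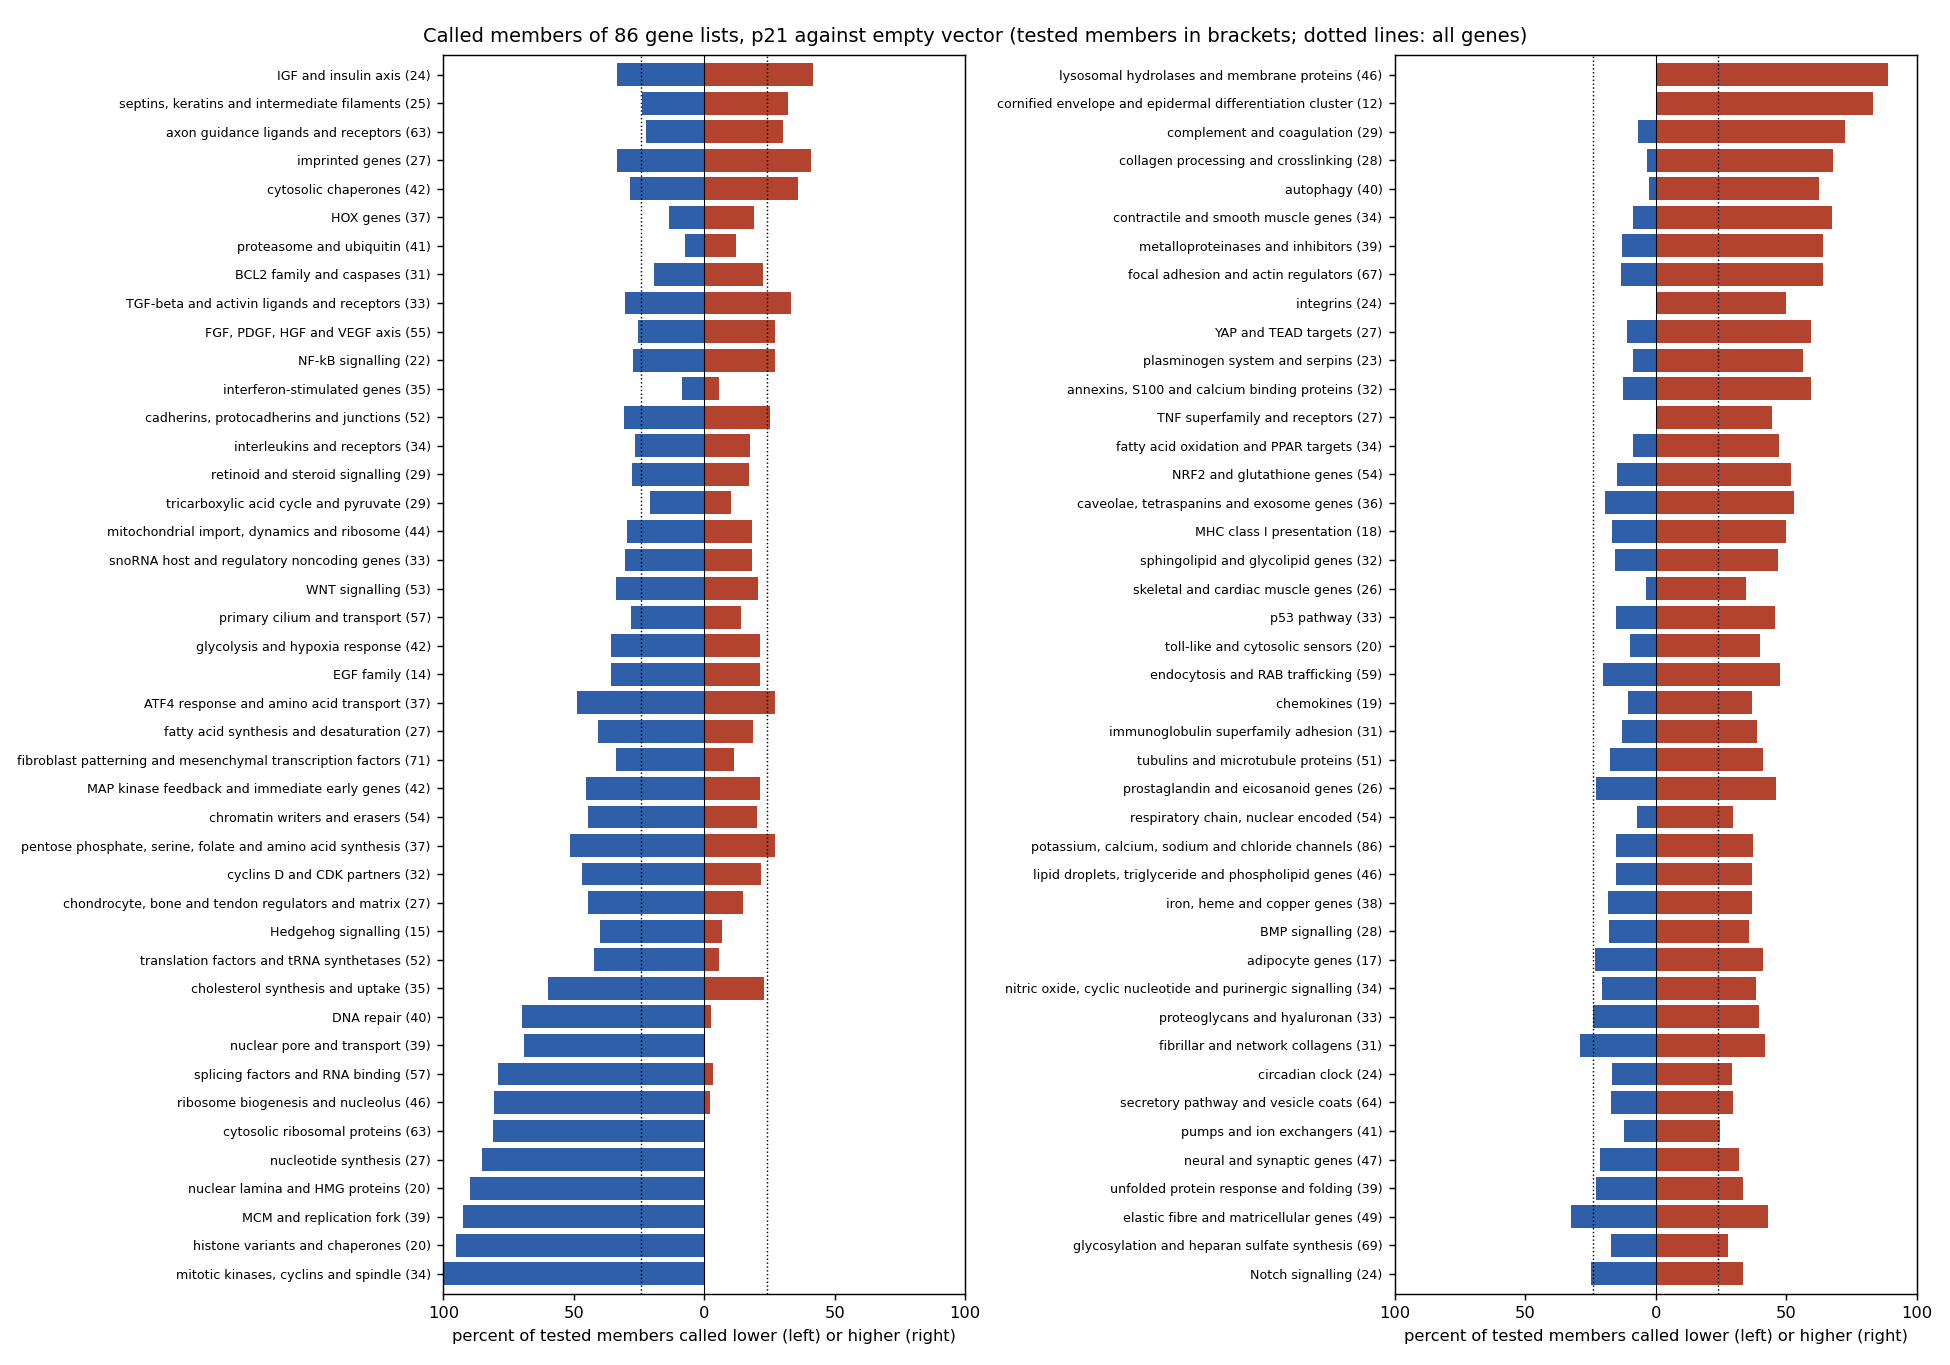
Share of tested genes of each of 86 of the 87 lists that fell (bars to the left) and rose (bars to the right) with p21, in percent, with dotted lines at the shares over all genes tested (24.2% fell and 24.0% rose). Lists of mitosis, histone variants, splicing and the nucleolus extend to the left, and those of the lysosome, complement and collagen crosslinking to the right.

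A block of neighbouring skin genes on chromosome 3 rose together. From S100a1 to Crct1, at 90511034 to 93015687 in GRCm38, all 18 genes that were tested rose, each in all 3 pairs, with a median log2 fold change of 1.18 and a range of 0.41 to 5.65. The highest value is that of Lce1l, at 0.0361, 0.137 and 0.00 CPM with the empty vector and 4.55, 2.54 and 2.39 CPM with p21, and with so few control counts its size is uncertain. This stretch lies in the epidermal differentiation cluster, which in keratinocytes encodes calcium-binding S100 proteins and proteins of the cornified envelope. It was picked out after the values were seen, so it is a description without a test of its own. It also leaves out genes with too few counts to test. Of 40 genes in the cornified envelope list 12 were tested, and of 21 late cornified envelope genes 4 were. The filter keeps a gene with enough counts in 1 group, so genes near silent in controls could enter through their p21 libraries. For such genes a rise was the likely outcome, so the 18 rises do not describe the whole cluster. Outside the stretch, Chtop on 1 side fell by 0.33 and Snapin next to it rose by 0.23. Tchh on the other side is itself in the cornified envelope list and did not pass the test (0.61 ± 0.27, adjusted p = 0.064). The stretch was drawn to end before Tchh, and 10 of the 12 tested genes of that list rose. The S100 genes ranged widely in controls, with S100a3 at 1.11 and S100a7a at 2.08 CPM on average. The most abundant, S100a6, was at 1749, 1821 and 1649 CPM with the empty vector and 2464, 2295 and 2503 CPM with p21. S100a4, often used as a fibroblast marker, was at 508, 465 and 409 CPM with the empty vector and 668, 617 and 552 CPM with p21. Both were higher in every p21 library than in every control, by 0.48 ± 0.036 and 0.41 ± 0.030. The envelope genes were low in controls, from 0.0578 CPM on average for Lce1l to 6.47 CPM for Sprr2k. Lce1h was at 3.18, 2.68 and 2.97 CPM with the empty vector and 18.9, 13.6 and 14.5 CPM with p21 and involucrin (Ivl), a scaffold of the envelope, at 0.289, 0.257 and 0.128 CPM with the empty vector and 2.86, 2.06 and 1.67 CPM with p21. Neither overlapped between the groups, and the log2 fold changes were 2.41 ± 0.099 and 3.27 ± 0.28. Loricrin (Lor) rose from 1.08 to 2.28 CPM and Sprr1a, a small proline-rich envelope protein, from 3.57 to 7.77 CPM. The late envelope genes are near-identical copies, so the division of reads among Lce1f, Lce1g, Lce1h and Lce1l is uncertain.

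**Figure D4:**
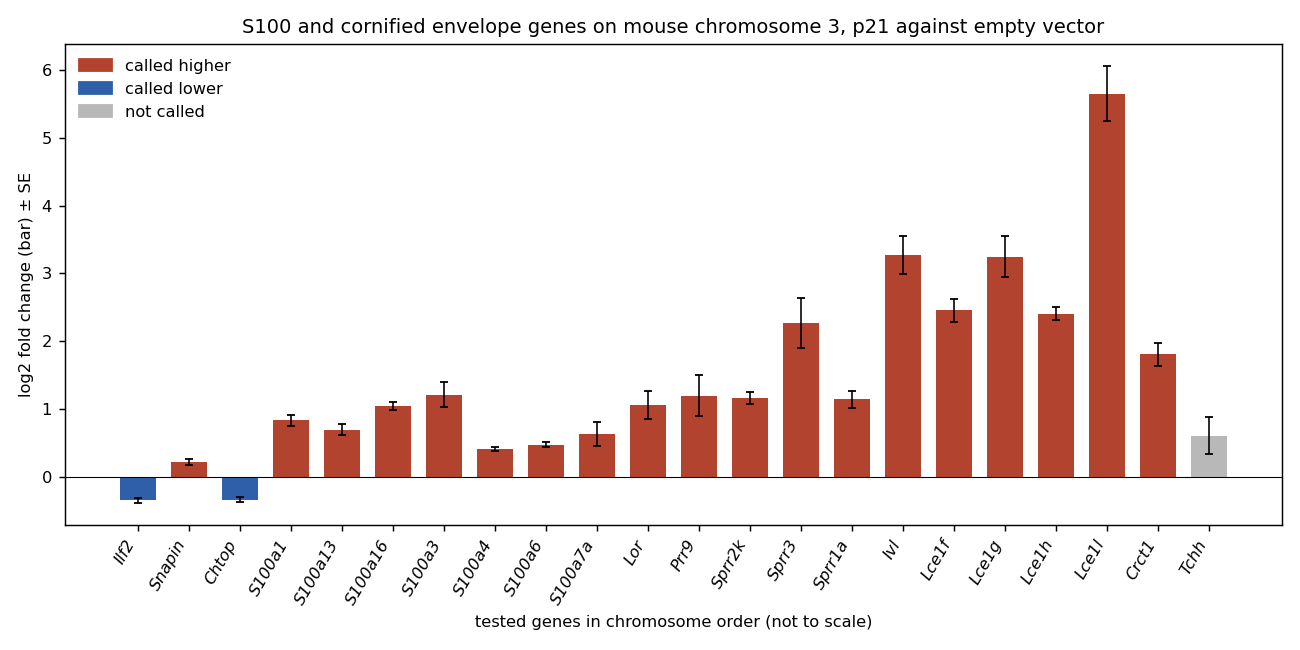
Log2 fold change with p21 (vertical axis, bars show the standard error) of tested genes in their order along chromosome 3, from Ilf2 to Tchh. The 18 genes from S100a1 to Crct1 all lie above 0, between 0.41 and 5.65. Of the neighbours, Ilf2 and Chtop lie below 0, and Snapin and Tchh lie above it.

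Epithelial genes outside that block moved in part. Keratin 20 (Krt20) was at 5.47, 5.03 and 4.91 CPM with the empty vector and 14.7, 11.3 and 14.4 CPM with p21 and desmoplakin (Dsp), which ties keratins to desmosomes, at 3.21, 3.21 and 2.11 CPM with the empty vector and 7.49, 7.21 and 7.41 CPM with p21. The p21 libraries lay above the controls in both, by 1.39 ± 0.096 and 1.38 ± 0.12 on the log2 scale, while keratin 80 (Krt80) fell by 0.71. Of 12 epithelial marker genes 4 were expressed enough to be tested and 2 rose. Their summed level was 59.6 to 77.2 CPM with the empty vector and 66.7 to 81.5 CPM with p21. The ranges overlap, and the sum was higher with p21 in all 3 pairs. Esrp1 and Grhl2 had at most 3 counts in every library. The part of epithelial cells in the rise of the envelope genes was not tested beyond these values.

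The promoters of 3 genes with large rises are printed because they carry the AP-1 element within 100 bases of the start site. They were chosen after the values were seen. Capitals mark TGANTCA, where N is any base, as it reads along the printed strand.
Mmp13: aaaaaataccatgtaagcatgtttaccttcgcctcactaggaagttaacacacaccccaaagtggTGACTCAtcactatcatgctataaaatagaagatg
Lor: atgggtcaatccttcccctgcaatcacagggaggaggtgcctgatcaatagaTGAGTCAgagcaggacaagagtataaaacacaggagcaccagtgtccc
Gldn: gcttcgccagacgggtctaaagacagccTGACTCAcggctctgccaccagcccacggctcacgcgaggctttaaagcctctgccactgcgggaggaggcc
The Mmp13 stretch lies at chr9:7272414-7272513, plus strand, that of Lor at chr3:92083143-92083242, minus strand and that of Gldn at chr9:54286386-54286485, plus strand, each in GRCm38.p6. Mmp13 encodes a collagenase and Gldn gliomedin, which helps to assemble nodes along nerves. Mmp13 was at 1.57, 1.22 and 1.64 CPM with the empty vector and 4.28, 3.15 and 3.59 CPM with p21 and Gldn at 3.36, 3.45 and 1.92 CPM with the empty vector and 9.31, 9.73 and 6.74 CPM with p21, without overlap between the groups. TGANTCA was in 38 of 205 windows (18.5%) of genes that rose by at least 2-fold, in 5.01% of all windows and in 4 of 10 windows of the cornified envelope list. GGAATG, the TEAD element, was in 10 of 26 windows (38.5%) of the contractile list and in 12.3% of all. CACGTG, the E box, was in 11 of 36 windows (30.6%) of the lysosome list and in 10.1% of all. All 3 elements were searched on both strands and added after the values were seen. Of the genes for AP-1 subunits, Jund fell by 0.24 and Fosl1 fell by 0.34 on the log2 scale. Fos, Fosb, Fosl2, Jun and Junb were tested too and their values are not given, so no direction is drawn for the subunits as a group.

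The extracellular matrix changed in composition. Of 31 collagen genes 13 rose and 9 fell. Genes of the basement membrane were among the rises: Col4a1, the main type IV chain, was at 1824, 1760.2 and 1817 CPM with the empty vector and 2595, 2398 and 2508 CPM with p21, and Col4a5 at 134, 132 and 129.6 CPM with the empty vector and 223, 218 and 217 CPM with p21. Neither overlapped between groups, and the log2 fold changes were 0.47 ± 0.025 and 0.74 ± 0.032. Of 11 laminin chains 7 rose, or 4 without the pairing, and none fell. Nidogen (Nid1), which links laminin to collagen IV, rose from 1223 to 1634 CPM, and perlecan (Hspg2) from 1508 to 1768 CPM. Microfibrillar collagen VI and its neighbours fell. Col6a1 was at 538, 538 and 588 CPM with the empty vector and 357, 361 and 387 CPM with p21, and every p21 library lay below every control (-0.59 ± 0.029 on the log2 scale). Col6a2 fell by 0.67 and Col3a1 fell by 0.32. The fibrillin of embryonic tissue, Fbn2, fell from 163 to 94.7 CPM, fibulin 1 (Fbln1) from 53.02 to 31.2 CPM and the proteoglycan versican (Vcan) from 389 to 236 CPM. Cell surface proteoglycans rose in part: the glypican Gpc4 from 207 to 336 CPM and the syndecan Sdc3 from 459 to 702 CPM, while Gpc1 fell from 211 to 173 CPM. Fibronectin (Fn1), which had the largest gain in CPM of all genes, was at 9886, 10204 and 10909 CPM with the empty vector and 15532, 15915 and 14770.5 CPM with p21, a log2 fold change of 0.58 ± 0.030.

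Enzymes that process and link collagen rose in 19 of 28 cases and fell in 1. Tgm2, the tissue transglutaminase that crosslinks matrix proteins, was at 73.2, 72.0 and 74.6 CPM with the empty vector and 185, 169.8 and 170.3 CPM with p21. The controls spanned under 3 CPM and the p21 libraries all lay far above them, with a log2 fold change of 1.26 ± 0.039 (adjusted p = 3.81e-17). The lysyl oxidases Loxl2 and Loxl4 rose by 0.43 and 0.40. Ecm1, a secreted glycoprotein that binds matrix proteins, was at 197, 209 and 209 CPM with the empty vector and 396, 378 and 388 CPM with p21, again without overlap. It rose by 0.92 ± 0.033 on the log2 scale.

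Proteases and their inhibitors rose side by side. Of 39 metalloproteinases and tissue inhibitors 25 rose and 5 fell (median 0.31), and of 23 genes of the plasminogen system and serpins 13 rose and 2 fell. The inhibitor Timp1 was at 471, 471 and 440.1 CPM with the empty vector and 764, 682 and 662 CPM with p21, and Timp2 and Timp3 rose by 0.54 and 0.46. Among the proteases, the ADAMs Adam15 and Adam9 rose from 119 to 183 CPM and from 292 to 406 CPM. The urokinase gene Plau rose from 212 to 279 CPM while the tissue-type activator Plat fell from 80.7 to 59.8 CPM. Serpinb9b, an intracellular serpin, was at 19.5, 15.2 and 15.4 CPM with the empty vector and 50.6, 42.8 and 56.6 CPM with p21, the p21 libraries above all controls (1.57 ± 0.067 on the log2 scale). Cemip, which is needed for the breakdown of hyaluronan by fibroblasts, was at 71.6, 76.5 and 87.6 CPM with the empty vector and 218, 211 and 226 CPM with p21. Its groups were far apart, at 1.48 ± 0.043.

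Adhesion and actin genes rose more often than they fell. Of 67 focal adhesion and actin regulators 43 rose and 9 fell, and of 24 integrins 12 rose, or 6 without the pairing, and none fell. Integrin beta 1 (Itgb1), the shared chain of most matrix receptors, was at 2297, 2230.5 and 2281 CPM with the empty vector and 3195, 3018 and 3316 CPM with p21, and its fibronectin partner Itga5 rose from 1370.3 to 1839 CPM. The groups of Itgb1 did not overlap. Its log2 fold change was 0.48 ± 0.030. Vinculin (Vcl) rose from 1389 to 1669 CPM, the kinase Limk2, which inactivates cofilin, from 70.3 to 104 CPM, and Rock2, a kinase of actomyosin contraction, from 379.5 to 484 CPM. The membrane linkers ezrin (Ezr) and radixin (Rdx) fell (-0.47 and -0.31 on the log2 scale). Of 52 cadherin and junction genes 16 fell and 13 rose, the falls including the gap junction gene Gjb2, from 148 to 87.0 CPM, and the large cadherin Dchs1, from 16.7 to 8.12 CPM. Caveolin (Cav1) rose from 581 to 755 CPM and the tetraspanin Cd151, a partner of laminin-binding integrins, from 153 to 219 CPM.

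Contractile genes rose in 23 of 34 and fell in 3. The sarcomeric actin Acta1 was at 138, 123 and 137 CPM with the empty vector and 429, 366 and 386 CPM with p21 and desmin (Des), the intermediate filament of muscle, at 87.4, 94.7 and 80.0 CPM with the empty vector and 244, 227 and 199.7 CPM with p21. Both lay above the controls in all p21 libraries, by 1.57 ± 0.038 and 1.36 ± 0.041. The smooth muscle myosin Myh11 rose from 73.5 to 153 CPM, the light chain kinase Mylk from 44.2 to 79.2 CPM and the natriuretic peptide Nppb, which heart muscle makes under load, from 5.89 to 15.1 CPM. Of 12 myoblast markers 7 were tested, 3 rose and none fell. The summed level of the list was 91.5 to 104 CPM with the empty vector and 208 to 249 CPM with p21, and most of that sum is desmin. The defining factors Myog and Myf5 had at most 3 counts in every library. Among small heat shock proteins, which protect filaments, Cryab rose from 68.4 to 130.2 CPM and Hspb1 from 178 to 272 CPM. YAP and TEAD act in transcription and respond to cell tension. In a list of their own genes, their regulators and their targets together, 16 of 27 rose and 3 fell. Of the targets, Ankrd1 rose from 262 to 423 CPM and Ctgf from 2929.6 to 3357 CPM.

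Growth factor genes changed in opposite directions by member. In the list of FGF, PDGF, HGF and VEGF axis genes 15 of 55 rose and 14 fell (9 without the pairing), shares near the background. Csf1, the macrophage colony-stimulating factor, was at 787, 786 and 652 CPM with the empty vector and 1468, 1436 and 1109.6 CPM with p21, a rise of 0.85 ± 0.030 without overlap. Ptn, pleiotrophin, a heparin-binding growth factor of developing mesenchyme, was at 88.7, 88.5 and 131 CPM with the empty vector and 29.6, 35.2 and 63.7 CPM with p21, and the PDGF receptor alpha gene Pdgfra at 33.6, 30.7 and 36.1 CPM with the empty vector and 13.8, 13.9 and 22.6 CPM with p21. Both were lower in every p21 library than in every control (-1.31 ± 0.063 and -1.03 ± 0.077 on the log2 scale), with replicate 3 the highest of its group in each. The angiopoietin Angpt4 rose from 1.46 to 4.49 CPM, Pdgfd from 20.5 to 31.1 CPM and Fgf2 from 8.70 to 13.8 CPM.

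Carriers of insulin-like growth factors moved both ways. IGF-binding proteins hold the growth factors outside cells and the protease Pappa frees them. Igfbp5 was at 198, 161 and 198 CPM with the empty vector and 90.8, 73.6 and 88.0 CPM with p21, and Igfbp2 at 31.4, 36.4 and 42.7 CPM with the empty vector and 61.6, 65.4 and 81.7 CPM with p21. The first was lower and the second higher in every p21 library, with log2 fold changes of -1.14 ± 0.041 and 0.92 ± 0.049. Pappa rose from 127 to 204 CPM, the protease Htra1 from 192 to 300.2 CPM and Igfbp3 from 7.20 to 11.4 CPM, while the adaptor Irs2 fell from 16.4 to 11.3 CPM. In the EGF family Ereg and the receptor Egfr rose by 0.39 and 0.29, and the receptor Erbb2 and the feedback inhibitor Errfi1 fell (-0.45 and -0.37 on the log2 scale). In the list of MAP kinase feedback and immediate early genes 9 of 42 rose and 19 fell: the phosphatases Dusp1 and Dusp4 rose from 72.7 to 116 CPM and from 48.1 to 76.3 CPM, and the transcription factor Egr3 fell from 11.9 to 6.80 CPM.

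**Figure D5:**
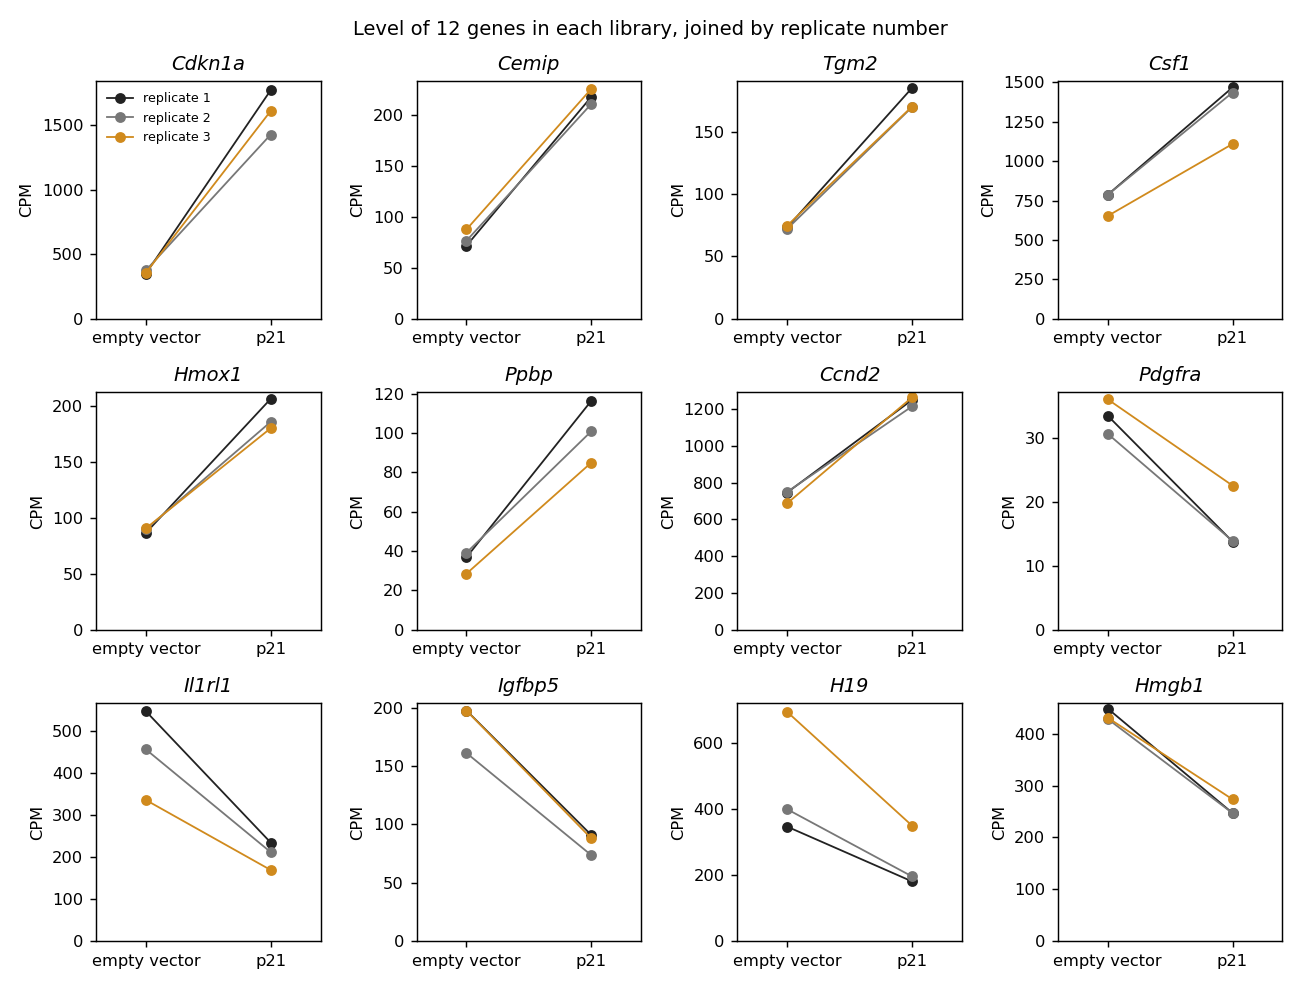
Levels in CPM (vertical axes, each starting at 0) of 12 genes in every library of the empty vector and p21 groups, with a point per library and lines joining the libraries of a pair. In each of the 12 genes all 3 pairs move the same way, and H19 is the only panel whose groups overlap.

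Signals of the immune system changed gene by gene. Interferon-stimulated genes had few calls, with 2 rises and 3 falls (5 in replicates 1 and 2 alone) among 35. Il1rl1, the receptor of interleukin 33, was at 547, 456 and 336 CPM with the empty vector and 234.4, 212 and 169 CPM with p21, and Il1rn, the receptor antagonist, at 15.7, 18.9 and 30.3 CPM with the empty vector and 6.75, 8.78 and 13.5 CPM with p21. In both the p21 libraries lay below the controls (-1.11 ± 0.038 and -1.16 ± 0.066 on the log2 scale), and the interleukin-1 receptor itself (Il1r1) fell from 54.8 to 39.5 CPM. The shared receptor chain Il6st and the oncostatin M receptor Osmr fell (-0.36 and -0.27 on the log2 scale). In the whole list of interleukins and receptors 9 of 34 fell and 6 rose. The log2 fold changes in that list ran from -1.16 to 2.34, so it did not move 1 way. Of 19 chemokines 7 rose and 2 fell, or 4 and none without the pairing. Ppbp, a CXCR2 ligand best known from platelets, was at 36.9, 39.2 and 28.5 CPM with the empty vector and 116, 101 and 85.0 CPM with p21. All p21 libraries stood above all controls, at 1.53 ± 0.048 (adjusted p = 3.81e-17).

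TNF family genes rose in 12 of 27, or 8 without the pairing, and none fell. The ligand Tnfsf15 was at 2.62, 1.65 and 1.94 CPM with the empty vector and 8.88, 7.24 and 8.37 CPM with p21, without overlap (1.98 ± 0.12 on the log2 scale), and the decoy receptor Tnfrsf23 rose from 66.1 to 108 CPM. Within NF-kB signalling 6 of 22 rose and 6 fell, the brake Tnfaip3 rising from 29.9 to 44.1 CPM and the subunit Nfkb1 falling from 75.1 to 57.4 CPM. Of 29 complement and coagulation genes 21 rose and 2 fell, among the rises tissue factor (F3), which starts clotting, from 119.5 to 201 CPM, and Gas6, the ligand of the receptor Axl, from 91.4 to 153 CPM. The complement shield Cd59a rose from 12.4 to 28.8 CPM, and the protease receptor F2rl1 fell from 37.6 to 21.9 CPM. Of MHC class I presentation genes 9 of 18 rose, or 5 without the pairing and 4 in replicates 1 and 2 alone, among them B2m, from 219.9 to 271 CPM. The leukocyte markers, mostly of macrophages, moved beside these lists: 11 of the 16 tested rose (4 without the pairing) and none fell. Their sum was 28.8 to 44.5 CPM with the empty vector and 46.0 to 61.8 CPM with p21, with the T cell marker Cd3e at no more than 3 counts in any library. The endothelial markers rose in 3 of 9 and fell in 1, with sums of 46.0 to 52.0 CPM with the empty vector and 58.8 to 61.7 CPM with p21 and with Tie1 and Cldn5 at no more than 3 counts. The part of such cells in these results was not tested.

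Genes of developmental signalling fell more often than they rose in the Hedgehog and WNT lists. In Hedgehog signalling 6 of 15 genes fell and 1 rose. Gas1, a membrane co-receptor of Hedgehog ligands, was at 18.5, 18.3 and 20.4 CPM with the empty vector and 5.84, 5.72 and 7.50 CPM with p21, the largest fall among genes whose groups did not overlap and whose mean log2 CPM was 1 or more. The groups were far apart (-1.59 ± 0.084 on the log2 scale, adjusted p = 2.70e-13). The transcription factor Gli2 fell from 12.2 to 6.40 CPM, Gli1, a target gene of the pathway, from 0.505 to 0.167 CPM, and the co-receptor Cdon from 35.8 to 29.3 CPM. Gli1 missed the threshold in replicates 1 and 2 alone (adjusted p = 0.065) and without replicate 3 of the empty vector (adjusted p = 0.053). In WNT signalling 18 of 53 fell and 11 rose, or 10 and 7 without the pairing. The WNT amplifier Rspo2 fell from 23.4 to 14.4 CPM, the receptor Ror2 from 42.9 to 33.4 CPM and the inhibitor Dkk3 from 177 to 138 CPM, and the R-spondin receptor Lgr6 rose from 10.2 to 17.4 CPM. Notch receptors diverged: Notch1 fell from 61.2 to 43.8 CPM and Notch4, the endothelial receptor, rose from 1.93 to 4.46 CPM, beside the endothelial markers given above. Of TGF-beta and activin genes 11 of 33 rose and 10 fell, the ligands Tgfb3 and Inhba rising by 0.59 and 0.58 and the co-receptor Tgfbr3 falling (-0.79 on the log2 scale).

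Mesenchymal transcription factors fell in 24 of 71 and rose in 8 (4 without the pairing). The limb and craniofacial factor Prrx1 fell from 392 to 319 CPM and Twist2 from 56.4 to 39.9 CPM, while Msx2, a homeobox factor of bone and teeth, was at 10.4, 10.4 and 7.97 CPM with the empty vector and 20.8, 21.1 and 16.2 CPM with p21 and so rose in all pairs (1.01 ± 0.066). HOX genes, which record position in the body, were mixed at 7 rises and 5 falls of 37, with 3 falls in replicates 1 and 2 alone, and without the pairing 1 rose and none fell. Skeletal regulators and matrix fell in 12 of 27 and rose in 4, with no rise left without the pairing. Runx3 was at 8.66, 8.99 and 9.76 CPM with the empty vector and 4.09, 4.60 and 3.74 CPM with p21, below all controls in all p21 libraries (-1.14 ± 0.11), and the cartilage factor Sox9 fell from 20.6 to 14.4 CPM. The cartilage proteoglycan Acan was at 23.01, 24.7 and 40.3 CPM with the empty vector and 12.02, 13.996 and 19.9 CPM with p21, the replicate 3 libraries being the highest of each group. Chondrocyte markers fell in 4 of 7 and rose in none, with sums of 426 to 852 CPM with the empty vector and 333 to 587 CPM with p21 and Matn1 at no more than 3 counts. The ranges overlap, and the sum was lower with p21 in all 3 pairs. Most of the sum is Col2a1, at 371, 456 and 767 CPM with the empty vector and 310, 377 and 556 CPM with p21. Its adjusted p was 6.50e-08, and 0.358 without the pairing. The markers that fell, Sox9, Col2a1, Acan and Matn3, are cartilage genes themselves, so they give no separate measure of chondrocytes. The part of such cells in the fall of cartilage genes was not tested.

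The lysosome and its supply routes rose. Of 46 lysosomal genes 41 rose and none fell (median 0.32), and of 18 subunits of the V-ATPase, the pump that acidifies it, 15 rose and none fell. The protease cathepsin D (Ctsd) was at 554, 590.0 and 581 CPM with the empty vector and 938, 878 and 932 CPM with p21, without overlap. In the reference annotation 31.5% of its exon sequence is shared with another gene on the same strand, so part of its reads is uncertain. Of 40 autophagy genes 25 rose and 1 fell; the membrane tags Gabarapl1 and Map1lc3b rose from 54.5 to 81.4 CPM and from 111 to 156 CPM. RAB and endocytosis genes rose in 28 of 59 and fell in 12 (7 without the pairing), with Rab7 of late endosomes up from 126 to 149.8 CPM.

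Genes of iron handling and oxidant defence moved both ways with p21. Of 38 iron, heme and copper genes 14 rose and 7 fell (55.3% called, against 48.2% of all genes). Heme oxygenase 1 (Hmox1), which frees iron from heme, was at 86.6, 89.8 and 90.7 CPM with the empty vector and 207, 186 and 180.3 CPM with p21, and the transferrin receptor (Tfrc) at 186, 169 and 159 CPM with the empty vector and 116, 111 and 117 CPM with p21. The p21 libraries were all above the controls in the first and all below in the second, with log2 fold changes of 1.10 ± 0.042 and -0.58 ± 0.040. The ferritin chains Ftl1 and Fth1 rose from 2438 to 3038 CPM and from 389.9 to 457 CPM, and Ncoa4, the receptor that brings ferritin to lysosomes, from 88.5 to 110.2 CPM. Of 54 NRF2 and glutathione genes 28 rose and 8 fell: Txnrd1 and Nqo1 rose by 0.38 and 0.52, and glutathione reductase (Gsr) fell by 0.44.

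Lipid genes moved both ways, by list. In cholesterol synthesis and uptake 21 of 35 fell and 8 rose (5 in replicates 1 and 2 alone), with lanosterol synthase (Lss) down from 56.8 to 41.0 CPM and the efflux pump Abca1 up from 9.28 to 15.7 CPM. The elongase Elovl6 fell from 76.4 to 50.4 CPM. Oxidation and PPAR target genes rose in 16 of 34 and fell in 3, among them Pdk4, which slows the entry of pyruvate into mitochondria, from 21.01 to 38.7 CPM. Mgll, the lipase of monoacylglycerols, was at 13.95, 16.1 and 12.5 CPM with the empty vector and 38.5, 35.4 and 29.7 CPM with p21, a clear separation of the groups (1.29 ± 0.061), and the droplet coat Plin2 rose from 161 to 241 CPM. Sphingolipid genes rose in 15 of 32 and fell in 5; the kinase Sphk1 rose from 18.5 to 29.6 CPM and the receptor S1pr3 for its product fell from 104 to 62.1 CPM. Of prostaglandin and eicosanoid genes 12 of 26 rose, with cyclooxygenase 2 (Ptgs2) up from 711 to 1045 CPM and the epoxide hydrolase Ephx2 from 10.3 to 22.6 CPM.

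Synthesis of serine, folate units and amino acids fell in 19 of 37 and rose in 10 (6 with library totals). The serine synthesis enzyme Psat1 fell from 308 to 237 CPM and mitochondrial Shmt2 from 207 to 155 CPM. The leucine transporter Slc7a5 was at 230.4, 232 and 249 CPM with the empty vector and 164, 166 and 180.5 CPM with p21, below the controls in every p21 library (-0.48 ± 0.031), and the glutamine transporter Slc1a5 fell from 64.0 to 45.5 CPM. The stress gene Nupr1 rose from 95.9 to 149 CPM while Atf4 fell from 254 to 212 CPM. In glycolysis and hypoxia genes 15 of 42 fell, or 9 without the pairing, and 9 rose. Ndufa4l2, a hypoxia-induced protein of mitochondria, was at 9.06, 9.88 and 15.1 CPM with the empty vector and 4.92, 3.54 and 4.60 CPM with p21, without overlap (-1.35 ± 0.12); lactate dehydrogenase (Ldha) fell from 2272 to 1964 CPM and hexokinase 1 (Hk1) rose from 125 to 157 CPM. The isocitrate dehydrogenase Idh2 fell from 129 to 87.4 CPM.

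Some large systems had few or mixed calls. In the proteasome and ubiquitin list 5 of 41 rose and 3 fell. With library totals alone 15 fell, and in replicates 1 and 2 alone 9 did. Respiratory chain genes rose in 16 of 54 and fell in 4, or 10 and 8 with library totals. The unfolded protein response rose in 13 of 39 and fell in 9, or 8 and 12 with library totals, with 7 rises in replicates 1 and 2 alone, and its central chaperone Hspa5 fell from 1453 to 1241 CPM. The circadian clock list gave 7 rises and 4 falls of 24.

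Ion channels and neuronal genes held some of the larger rises. Of 86 channel genes 32 rose and 13 fell (7 in replicates 1 and 2 alone). The stretch-activated channel Piezo1 was at 491, 495 and 474 CPM with the empty vector and 664, 686 and 595 CPM with p21, without overlap (0.41 ± 0.035), and Kcnmb1, the smooth muscle subunit of the BK potassium channel, rose from 12.9 to 23.6 CPM. Kinesins, the motors of microtubules, split: 16 of 33 fell, mitotic Kif14 and Kif15 among them at -1.16 and -1.09, and 8 rose. The transport motor Kif1a was at 59.7, 57.1 and 53.1 CPM with the empty vector and 133, 119.9 and 102 CPM with p21, all p21 libraries above all controls (1.06 ± 0.042). The adhesion molecule Nrcam rose from 3.91 to 9.49 CPM, the kinase Camk2a from 1.72 to 4.55 CPM and the actin nucleator Cobl from 5.84 to 15.9 CPM. Cilium genes fell in 16 of 57 and rose in 8 (5 without the pairing and in replicates 1 and 2 alone), with Arl13b of the cilium membrane down from 24.9 to 18.8 CPM. The neural crest and glia markers rose in 4 of 9, with sums of 567 to 674 CPM with the empty vector and 656 to 769 CPM with p21. The ranges overlap, and the sum was higher with p21 in all 3 pairs. Their part in these rises was not tested.

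Genes of sugar chains, guidance cues and retinoid signals were called about as often as all genes, with single members that moved further. Of 69 glycosylation genes 19 rose and 12 fell, or 14 and 19 with library totals. Enzymes of chondroitin sulfate were among the rises: the sulfotransferase Chst12 was at 87.3, 88.1 and 93.6 CPM with the empty vector and 149, 136 and 149 CPM with p21, without overlap (0.69 ± 0.037), Chst11 rose from 41.7 to 64.1 CPM and the synthase Chpf2 from 134 to 194 CPM. The enzyme Galnt18 of O-linked sugar chains rose from 118 to 198 CPM, while Sulf2, which trims sulfate from heparan sulfate, fell from 163 to 132 CPM. Axon guidance genes rose in 19 of 63 and fell in 14 (9 without the pairing). The receptor Epha1 rose from 11.7 to 21.7 CPM and Ephb2 fell from 70.5 to 51.4 CPM, and the repulsive cue Rgma fell from 12.6 to 6.54 CPM. In retinoid and steroid signalling 8 of 29 fell and 5 rose. Without the pairing 5 fell and 2 rose, with library totals 13 fell, and in replicates 1 and 2 alone 3 rose. The retinoic acid carrier Crabp1 was at 127, 99.8 and 109 CPM with the empty vector and 75.1, 55.7 and 70.2 CPM with p21, below the controls in every p21 library, and the glucocorticoid target Fkbp5 fell from 47.6 to 34.1 CPM.

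Further genes among the 30 largest rises and falls have varied functions. P-selectin (Selp), an adhesion receptor for leukocytes made by endothelium and platelets, was at 4.22, 5.63 and 5.08 CPM with the empty vector and 11.9, 12.3 and 14.2 CPM with p21. The acid-sensing channel Asic3 was at 2.18, 2.93 and 3.31 CPM with the empty vector and 6.10, 7.15 and 7.67 CPM with p21 and Parm1, a membrane mucin, at 4.30, 3.89 and 4.08 CPM with the empty vector and 13.4, 10.6 and 9.89 CPM with p21. All 3 were higher in every p21 library than in every control, by 1.36 ± 0.097, 1.32 ± 0.11 and 1.47 ± 0.099. The secreted protein Olfm2 rose from 5.61 to 14.4 CPM, the cytoskeletal adaptor Pstpip1 from 5.28 to 13.2 CPM and Slfn2 of the Schlafen family from 1.92 to 5.26 CPM. Among the falls, the urea transporter Slc14a1 was at 9.48, 11.8 and 10.9 CPM with the empty vector and 3.76, 4.45 and 5.47 CPM with p21 and the nuclear envelope linker Syne3 at 26.4, 25.5 and 27.5 CPM with the empty vector and 12.4, 12.95 and 11.9 CPM with p21. Neither overlapped between groups, with log2 fold changes of -1.25 ± 0.10 and -1.09 ± 0.067. The phosphatase Cdc25b, which activates Cdk1, fell from 28.7 to 12.5 CPM and the matrix protein Abi3bp from 18.2 to 8.65 CPM.

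In some noncoding and imprinted genes the call depended on the pairs. Of 134 long intergenic noncoding RNAs tested 32 rose and 11 fell, the median log2 fold change being 0.24. Of 27 imprinted genes, which are expressed from 1 parental copy, 11 rose and 9 fell, or 8 and 4 without the pairing. H19, an imprinted fetal RNA, was at 347, 399 and 695 CPM with the empty vector and 181, 196 and 349.9 CPM with p21. The groups overlap, the replicate 3 library being the highest of each, and every pair fell, with a log2 fold change of -0.99 ± 0.033 in the paired fit (adjusted p = 1.94e-16, and 0.028 without the pairing). Its imprinted neighbour Igf2, at 498, 614 and 888 CPM with the empty vector and 557, 663 and 1013 CPM with p21, also overlapped and rose within every pair by 0.15 ± 0.028, with an adjusted p of 0.66 without the pairing. Rian, a noncoding RNA of another imprinted cluster, rose from 458 to 548 CPM. Impact, an imprinted regulator of translation, rose from 67.2 to 102 CPM, and Mest fell from 11.5 to 6.48 CPM. Snhg11, a noncoding host gene, was at 0.0722, 0.172 and 0.0854 CPM with the empty vector and 0.573, 1.202 and 0.988 CPM with p21, close to silent in controls and higher in all p21 libraries.

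Genes that rose gained 80080 CPM in sum and genes that fell lost 45611 CPM, and the 15 largest genes held 28.7% of the gain and 11.01% of the loss. The scaling factors were 1.018 to 1.020 for the empty vector libraries and 0.979 to 0.992 for the p21 libraries. Scaled CPM therefore add up to more in the p21 libraries. The gap between gain and loss follows from that scaling and does not measure RNA gained by the cells. The 15 gains were mostly matrix and contractile genes, such as Fn1, Thbs1 from 14359.5 to 16966 CPM, Acta2 from 6167 to 8474 CPM and Tagln from 3358 to 4540.3 CPM. In the reference annotation 67.9% of the Tagln exon sequence overlaps a gene on the opposite strand, and the kit keeps no strand, so its reads may be mixed. The 15 losses were spread over Eef1a1, the chaperone Hsp90ab1 from 2700.1 to 2343 CPM, the chromatin protein Ptma from 1069 to 733 CPM and ribosomal proteins such as Rpl3 from 1343 to 1143 CPM.

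Against the p16 libraries, paired the same way, p21 gave 3214 calls (22.6% of genes tested), 1566 higher and 1648 lower. Without the pairing it gave 1858. Any difference in handling between the p16 and p21 libraries cannot be told apart from that of the delivered gene. Both comparisons use the same p21 libraries, so the values are set side by side and no overlap is drawn. Cdk1 averaged 114 CPM with p16, Hmgb1 333 CPM and Tgm2 123 CPM, and p21 differed from p16 in each, by -0.52 ± 0.041, -0.38 ± 0.036 and 0.51 ± 0.038 on the log2 scale. Igfbp5 averaged 169 CPM with p16 and differed by -1.01 ± 0.041, Lce1h 6.19 CPM with a difference of 1.35 ± 0.089, and Gas1 11.2 CPM with a difference of -0.81 ± 0.088. For some genes the difference was not detectable. Ccnd1 averaged 458 CPM with p16, with a difference of 0.01 ± 0.029 (adjusted p = 0.863). Acan averaged 15.2 CPM with a difference of 0.00 ± 0.070, and Hspb1 271 CPM with a difference of 0.01 ± 0.033 (adjusted p = 0.941). Of the genes named here, these were picked after their values were seen.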

How the data were processed

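RNA-seq counts of 9 libraries were used, 3 per group. The authors deposited 1 table of raw counts with a row per gene symbol. TopHat2 2.0.14, Bowtie2 2.2.6, Subread's featureCounts 1.4.6 and the mm10 build are named in the submitters' processing notes. The annotation and the strand option used are not given in the sources used here. The labels name a TruSeq kit that keeps no strand, so overlapping genes on opposite strands cannot be separated. Total counts per library set the precision: with a common dispersion of 0.0016 (a biological coefficient of variation of 4.00%), genes with few counts are the least precise.

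Genes were filtered by filterByExpr (minimum count 10, minimum total 15), scaled by TMM and fitted in edgeR 4.0.16 (R 4.3.3) by group with the replicate number as a block, on all 9 libraries (4 residual degrees of freedom). The two-sided quasi-likelihood F test was adjusted by Benjamini-Hochberg over the 14223 genes tested, with a threshold of 0.05. Each standard error was obtained as the size of the log2 fold change over the root of its F statistic. Summed markers use library totals alone. Deviations from the group means correlated between same-numbered libraries at r = 0.126 to 0.361 and between other libraries at -0.246 to 0.106. The gap rests largely on replicate 3, and numbers 1 and 2 were hardly told apart. The p21 library of replicate 2 correlated at 0.126 with p16 replicate 2 and at 0.106 with p16 replicate 1. The labels do not explain the numbers. The fit was tested on simulated data.

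The comparison, the 87 lists, 82 families and 9 marker lists were chosen with earlier results of these data known. Genes were named by a rule: Cdkn1a and Cdkn2a, the 30 largest rises and falls (adjusted p under 0.05, mean log2 CPM at least 1, no overlap of groups), the 15 largest gains and losses in CPM, and per list the members with the smallest p or a role needed for the account. Some items are not reported here. Positions and exon overlaps are from GENCODE M21 (GRCm38), and promoters from RefSeq (GRCm38.p6). Of the genes tested 13558 matched 1 GENCODE gene and 10507 had a promoter. Older symbols were matched through RefSeq synonyms. Alternatives were no pairing, 6 libraries, 3 other scalings, 2 filters, DESeq2 1.42.0, limma-voom (limma 3.58.1), glmTreat at 1.5-fold, replicates 1 and 2 alone and each library left out. Figures and list counts were made in Python 3.11.15 (pandas 2.3.3, matplotlib 3.10.9).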

Additional observations from a re-analysis of the deposited data

How the results depend on the processing

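Without the pairing 5681 genes passed for p21 against the empty vector and 1858 for p21 against p16. With a test against a 1.5-fold change (glmTreat) 384 passed, 190 higher and 194 lower; that test asks for a larger effect. The other settings gave 5263 calls (6 libraries without the pairing) to 7104 (library totals), 6148 with DESeq2, 6060 in replicates 1 and 2 alone and 5577 to 6569 with each library left out in turn. In none of the 18 alternatives did a gene called with p21 change sign. Of 87 lists 86 had more calls in 1 direction; 83 kept it without the pairing and none turned, 74 kept it with library totals and 8 turned, and 82 kept it in replicates 1 and 2 alone and 2 turned. Of the 265 genes named that passed, 259 kept their call in all alternatives other than glmTreat. The exceptions were Hist2h2bb, Igf2, Xpc, Gli1, C1qb and C1qc, and the cause was not tested. With glmTreat 117 of the 265 passed and 148 did not. Xist depended on single libraries. It did not pass at 0.25, or at -0.32 without the pairing (-0.32 with 6 libraries), -0.30 with limma-voom and -0.10 without replicate 1 of the empty vector. It passed at 4.65 in replicates 1 and 2 alone, at 4.25 and 4.50 without replicate 3 of the empty vector or of p21, at 0.26 with no filter and, with the opposite sign, at -0.35 without replicate 1 of p21. Depth limits the genes under 1 CPM most.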

Other observations

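Runs of neighbouring genes other than the chromosome 3 stretch also moved 1 way; they were picked out after their values were seen and have no test of their own. On chromosome 4 the 3 chains of the complement component C1q rose together, C1qa from 1.36 to 2.70 CPM, C1qb from 1.23 to 2.39 CPM and C1qc from 1.04 to 1.80 CPM. Macrophages make C1q, and the macrophage markers given above moved with it. C1qc had an adjusted p of 0.083 without the pairing and of 0.114 without replicate 1 of p21. C1qb had one of 0.0582 with DESeq2 and of 0.0617 and 0.0766 without replicate 1 of the empty vector or of p21. On chromosome 14 the mast cell protease gene Mcpt8 was at 5.22, 5.25 and 5.19 CPM with the empty vector and 9.99, 8.64 and 10.996 CPM with p21, and its neighbours, the granzymes Gzme and Gzmd, rose from 2.56 to 4.78 CPM and from 0.662 to 1.46 CPM. The p21 libraries lay above the controls in Mcpt8. Granzymes d and e are close copies, so the split between them is uncertain. On chromosome 13 runs of 6 and of 3 histone genes rose.

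In 599 tested genes the pairs disagreed in sign while at least 1 pair differed by more than 1 on the log2 scale. Xist, with the values given above, was 1 of them.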
